A study of Homo sapiens with 18 samples.

Results

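The comparison described here set a second caspase-2 knockout clone of the human acute myeloid leukaemia line OCI-AML2 (clone 2) against the first (clone 1). Its members were the 3 libraries labelled as each clone, 6 of the 18 libraries of the series, chosen by the sample titles. The 3 parental OCI-AML2 libraries served to say which clone had left the parental level, and the 6 clone libraries of OCI-AML3 served for scale.

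The series profiled untreated OCI-AML2 cells, which carry NPM1WT, and OCI-AML3 cells, which carry the mutated NPM1c+, by RNA sequencing, to ask what caspase-2 does in leukaemia with normal or mutated NPM1. All OCI-AML2 groups had the genotype NPM1WT. The parental cells were caspase-2 WT, and both clones were caspase-2 KO, made with CRISPR-Cas9. Cells were cultured in RPMI medium with serum, for under 2 weeks by the labels. Each knockout group was 1 clone, so an effect of editing seen in 1 clone and a property of that clone cannot be told apart. The labels do not say whether the 3 libraries of a group came from separate cultures, and the p-values then measure only the spread between these libraries, which may be technical.

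Caspase-2 is an initiator protease activated in large signalling complexes after genotoxic, mitotic and metabolic stress, where it can cleave BID or MDM2. Acute myeloid leukaemia cells are arrested along the path from progenitor to granulocyte or monocyte, and the genes of primary granules, phagocyte oxidase and antigen presentation mark stages of that path. Amino acid shortage and unfolded proteins converge on the transcription factors ATF4 and CHOP (the product of DDIT3), which switch on genes for amino acid transport, synthesis and redox balance. Cycling cells raise kinases such as PLK1 and, in S phase, the histone genes that lack polyadenylation.

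The deposited values were TPM (transcript abundance scaled by gene length and library total). The number of reads behind them is unknown. The table held 5069 distinct sets of 18 values under 4816 symbols and was a selection of genes that differ somewhere in the series. Of these, 4413 sets had at least 1 TPM in at least 3 libraries and were tested, and 2087 of the tested sets carried a symbol that the structure of the table settled. Only these are named. The TPM of all sets summed to 189144 to 199403 in clone 1, 176022 to 179876 in clone 2 and 175398 to 177745 in parental cells, and the part of this gap in the results was not tested. Rescaling the libraries by medians of ratios raised the log2 difference, clone 2 minus clone 1, by a median of 0.085 in the 3146 sets with at least 1 TPM in all 6 clone libraries, and gave 1527 sets higher and 1139 lower in clone 2. Of 8 defining markers of myeloid leukaemia cells that were looked up, only ANPEP had a settled symbol, at 0.08 to 0.65 TPM in the 9 OCI-AML2 libraries, and the rest were not analysed here. In bulk RNA, fewer cells of a type and less RNA per cell cannot be told apart.

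CASP2, the targeted gene, was low in both clones. Clone 1 held 3.93, 3.58 and 3 TPM, clone 2 held 5.03, 3.27 and 5.06 TPM, and the parental libraries held 35.32, 37.29 and 35.57 TPM. The libraries of the clones overlapped, and every clone library lay below every parental one. Between the clones the log2(TPM + 1) difference was 0.26 (SE 0.11, adjusted p = 0.0534 by limma, exact two-sided permutation p = 0.3, where 0.1 is the smallest possible). The call depended on single libraries: adjusted p by limma was 0.000552 (log2 difference 0.43) without clone 2 replicate 2 and 0.0313 (0.33) without clone 1 replicate 1. It was 0.00888 (0.33) after rescaling by medians of ratios and 0.0489 with a minimum of 5 TPM.

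The clones differed from each other widely. CCL2, a monocyte chemoattractant, and the macrophage pore protein gene MPEG1 were among the genes far higher in clone 2. The integrin chain gene ITGAX, the linker histone gene HIST1H1C and the glutathione-degrading enzyme gene CHAC1 were far lower. Of the 4413 tested sets, 2599 (58.9%) passed an adjusted p of 0.05 in limma, 1318 higher in clone 2 (29.9%) and 1281 lower (29.0%). With a log2 difference of at least 1 as well, 176 were higher (3.99%) and 334 lower (7.57%), 11.6% together. Of the 2087 sets with a settled symbol, 1220 passed (58.5%), 548 higher and 672 lower, and 77 higher (3.69%) and 177 lower (8.48%) also reached a log2 difference of 1. The same comparison in OCI-AML3 passed 301 sets (6.82%), of which 7 (0.159%) reached a log2 difference of 1. The median absolute log2 difference was 0.342 between the OCI-AML2 clones and 0.113 between the OCI-AML3 clones. It was 0.312 for clone 1 and 0.434 for clone 2 of OCI-AML2 against their parental cells. The cell lines are not on equal terms here. Sets taken as selected on OCI-AML3 passed a log2 ratio of 0.95 against parental in both its clones, in the same direction. Selection on OCI-AML2 ran through clone 1. Agreement between the OCI-AML3 clones was thus partly selected for.

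Against parental cells, 2471 sets (56.0%) passed in clone 1 and 2900 (65.7%) in clone 2. These comparisons share the parental libraries, so the following split only says where each difference between the clones lay. Of the 2599 sets called between the clones, 791 (30.4%) had left the parental level in clone 2 alone and 405 (15.6%) in clone 1 alone. In 1007 (38.7%) both clones had moved the same way by different amounts, clone 2 further in 646 and clone 1 further in 361. In 280 (10.8%) they had moved in opposite directions, and these sets had the largest median absolute difference of the 5 classes, 1.03 on the log2 scale, against 0.596 for clone 2 alone and 0.554 for clone 1 alone. Neither clone passed against parental in 116 (4.46%). This count fell to 76 without clone 2 replicate 1 and rose to between 161 and 170 without any 1 parental library.

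By its values the table was itself selected partly on clone 1, with 204 sets that passed a log2 ratio of 0.95 in that clone and in no other of the comparisons used for selection. Another 39 sets passed that ratio in clone 2 and in none of these comparisons. The comparisons used for selection were inferred from the values, and are not stated in the sources used here. In the 1950 tested sets selected on OCI-AML3 alone, 338 of 1075 called sets (31.4%) had moved in clone 2 alone and 177 (16.5%) in clone 1 alone. Where both had moved the same way there, clone 2 was further in 278 and clone 1 in 115. A log2 ratio of 0.95 against parental was passed by 774 of these sets in clone 2 and by 547 in clone 1.

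**Figure D1:**
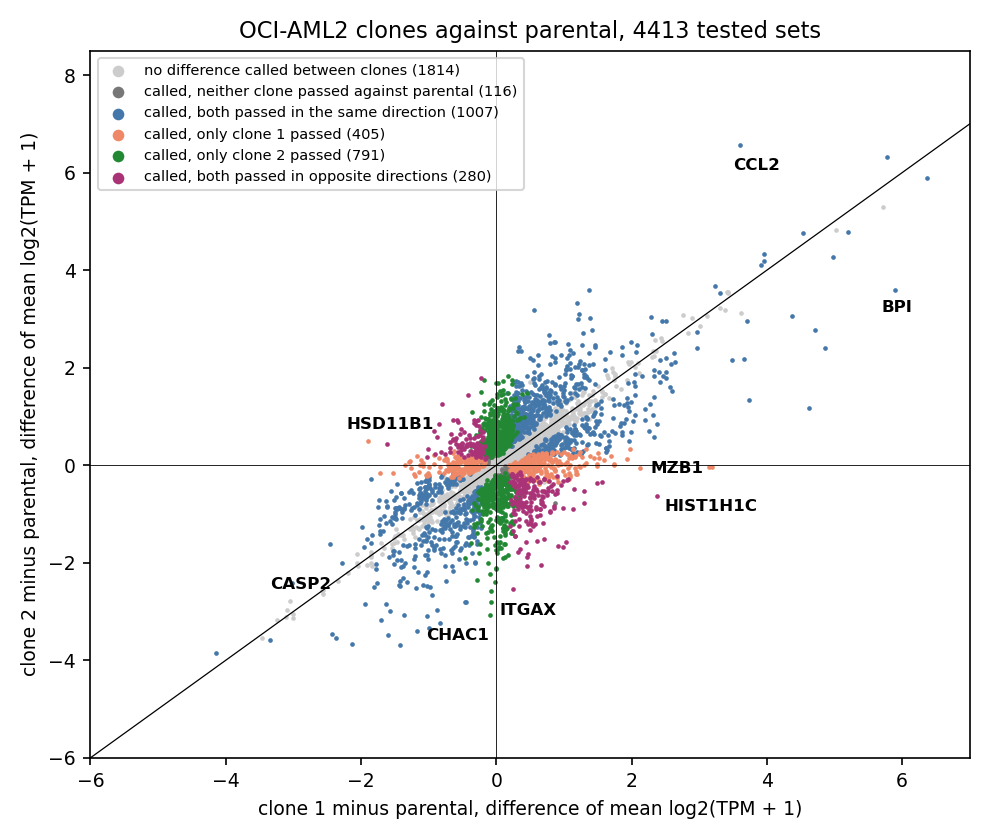
Difference of mean log2(TPM + 1) from parental OCI-AML2 cells in clone 1 (x axis) and clone 2 (y axis) for the 4413 tested sets, each point 1 set, coloured by which clone passed against parental, with equal change on the diagonal. CCL2 lies above the diagonal at 3.61 and 6.56, ITGAX and CHAC1 lie below it, and HIST1H1C lies in the quadrant of opposite change.

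The genes with the largest rises in clone 2 over clone 1 were mostly ones that both clones had raised from parental, clone 2 further. CCL2 measured 0.48, 0.5 and 0.68 TPM in parental libraries, 20.41, 18.95 and 14.75 TPM in clone 1 and 137.15, 147.02 and 152.78 TPM in clone 2. All 9 libraries fell into 3 separate ranges, and clone 2 was 8.08-fold above clone 1 in mean TPM (log2 difference 2.96, SE 0.15, adjusted p = 2.0e-11 by limma). Clone libraries did not overlap in 60.3% of all tested sets and in 59.7% of those with a settled symbol. MPEG1, perforin-2 of phagocytes, stood at 6.61, 6.51 and 5.36 TPM in clone 1 against 30.97, 28.09 and 32.9 TPM in clone 2, from at most 2.29 TPM in parental cells (log2 difference 2.15). RAB7B, a small GTPase of late endosomes, rose from 2.98, 2.7 and 2.78 TPM to 12.09, 14.8 and 12.96 TPM (1.90). ANXA1, the anti-inflammatory annexin of phagocytes, rose from 4.83, 5.67 and 4.09 TPM to 20.7, 19.13 and 18.29 TPM (1.80). The same pattern held for CILP2, a cartilage matrix protein gene (1.88), AMH, anti-Mullerian hormone (1.71), CYTIP, a regulator of leukocyte adhesion (1.66), and ASGR2, a chain of the asialoglycoprotein receptor (1.64).

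Of the 12 largest rises, 4 did not follow it. HSD11B1, which regenerates active glucocorticoid, measured 36.8, 39.32 and 39.01 TPM in parental cells, 12.38, 11.75 and 11.55 TPM in clone 1 and 58.78, 51.13 and 47.94 TPM in clone 2. Clone 1 lay below and clone 2 above every parental library (log2 difference 2.05, SE 0.09, adjusted p = 4.0e-12). EZH2, the methyltransferase of Polycomb repressive complex 2, split the same way, with 13.01, 10.47 and 11.64 TPM in parental cells, 5.83, 5.96 and 5.28 TPM in clone 1 and 19.73, 20.41 and 19.09 TPM in clone 2 (1.63). CTXN1, which encodes cortexin, did so at lower levels (1.69). ESCO2, an acetyltransferase of sister chromatid cohesion, differed from parental in clone 2 alone, at 23.43, 22.29 and 19.77 TPM against 5.32 to 6.92 TPM in clone 1 and 5.3 to 5.47 TPM in parental cells (1.66).

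Among the 12 largest falls, ITGAX, which encodes CD11c, the alpha chain of complement receptor 4, had the smallest spread in clone 2. It measured 28.68, 26.51 and 26.58 TPM in parental cells, 25.84, 26.19 and 24.29 TPM in clone 1 and 2.36, 2.38 and 2.35 TPM in clone 2. Clone 1 did not pass against parental (adjusted p = 0.368), while clone 2 lay 10.8-fold below clone 1 (log2 difference -2.97, SE 0.08, adjusted p = 9.4e-14). P2RX7, an ATP-gated cation channel of myeloid cells, fell in steps, with 109.57, 113.29 and 109.82 TPM in parental cells, 50.78, 51.21 and 44.98 TPM in clone 1 and 8.75, 10.65 and 9.32 TPM in clone 2 (-2.24). GABRG1, a GABA receptor subunit, also fell in steps, to 0.38 to 0.52 TPM in clone 2 (-2.26). NOXA1, an activator of NADPH oxidases, stood at 8.55, 9.2 and 8.02 TPM in clone 1 against 0.91, 0.52 and 0.57 TPM in clone 2, on either side of 5.73 to 6.17 TPM in parental cells (-2.53). EFEMP2, an elastic fibre protein (-2.59), and PCP2, a protein known from Purkinje cells (-2.35), lay on either side of parental in the same way.

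Genes that had moved in clone 1 alone, among the largest of that class, were all higher there. MZB1, an endoplasmic reticulum chaperone best known from antibody-secreting B cells, measured 22.71, 28.87 and 23.55 TPM in clone 1, against 5.43, 4.05 and 4.77 TPM in clone 2 and 5.55, 4.75 and 4.52 TPM in parental cells. The last 2 groups overlapped (log2 difference between the clones -2.18, SE 0.12). TSPAN32, a tetraspanin of blood cells (-1.80), ZMAT1, a zinc finger gene (-1.73), and MYO15B, an unconventional myosin gene (-1.70), had the same form. Beside ITGAX, genes that had moved in clone 2 alone included FBP1, fructose-1,6-bisphosphatase of gluconeogenesis, at 31.75, 31.76 and 29.74 TPM in clone 1 and 5.96, 6.43 and 6.54 TPM in clone 2 (-2.13). CFD, complement factor D, stored in neutrophil and monocyte granules, measured 204.11, 263.71 and 280.26 TPM in clone 1 and 49.67, 77.63 and 51.03 TPM in clone 2 (-2.07). The uncharacterised LOC112268238 followed (-1.82). Where neither clone passed against parental, the largest differences were small: TRIM36, a ubiquitin ligase, at 0.42 (adjusted p = 0.00712), PELI2 at -0.39, ABHD4 at -0.36 (0.0441) and DUSP22 at -0.34. Each lost its call under at least 1 alternative: TRIM36 and PELI2 with a pseudocount of 0.1 (adjusted p = 0.0578 and 0.0752), ABHD4 and DUSP22 after rescaling by medians of ratios (0.117 and 0.0762). Without clone 1 replicate 1 the values were 0.117 and 0.0729 for ABHD4 and DUSP22, and without clone 2 replicate 3 they were 0.0535 and 0.0505. ABHD4 also lost it without clone 1 replicate 2 (0.159), clone 2 replicate 1 (0.126) and clone 2 replicate 2 (0.0755), and TRIM36 in the 6 clone libraries alone (0.0539).

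The integrated stress response list held 13 tested members, of which 7 were lower in clone 2, 2 higher and 4 did not pass. Over all tested sets with a settled symbol, 32.2% were lower and 26.3% higher, with a median log2 difference of -0.0089, against a list median of -1.45. The same shares are the background for every list below. CHAC1, which degrades glutathione and is a target of ATF4 and CHOP, measured 92.34, 82.49 and 92 TPM in parental cells, 52.16, 53.27 and 43.15 TPM in clone 1 and 8.03, 7.86 and 9.88 TPM in clone 2. The 3 groups did not overlap, and clone 2 lay 5.77-fold below clone 1 (log2 difference -2.40, SE 0.09, adjusted p = 1.1e-12). DDIT4, an inhibitor of mTORC1 signalling, fell in the same order, from 178.7, 161.69 and 193.4 TPM over 93.45, 100.62 and 94.46 TPM to 23.33, 20.49 and 21.38 TPM (-2.10). SLC6A9, the glycine transporter GlyT1, did so too, with 13.12, 13.09 and 10.68 TPM in clone 1 and 1.52, 1.31 and 2.02 TPM in clone 2 (-2.35). INHBE, an inhibin beta chain, went from 6.96, 6.16 and 6.36 TPM to 0.66, 0.35 and 0.47 TPM (-2.33).

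DDIT3, which encodes CHOP itself, moved in opposite directions, at 46.5, 47.42 and 49.3 TPM in parental cells, 51.51, 57.43 and 56.48 TPM in clone 1 and 17.86, 22.25 and 18.61 TPM in clone 2 (log2 difference -1.45, SE 0.08, adjusted p = 3.7e-11). NUPR1, a stress-induced chromatin protein gene, measured 2.73, 3.8 and 3.57 TPM in clone 1 and was listed at 0, 0.41 and 0.15 TPM in clone 2 (-1.89). The 2 members that were higher in clone 2 were HSPA5 and SLC7A11. HSPA5, the BiP chaperone of the endoplasmic reticulum, stood at 166.21, 169.64 and 182.7 TPM in clone 1 and 326.9, 353.84 and 302.2 TPM in clone 2, against 150.18 to 177.21 TPM in parental cells (difference between the clones 0.92). Clone 2 alone had left the parental level. SLC7A11, the cystine-glutamate exchanger, measured 22.26, 24.36 and 20.78 TPM in clone 1 and 41.69, 32.52 and 33.35 TPM in clone 2 (0.65).

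The other members did not separate the clones. SLC7A5, the large neutral amino acid transporter, measured 1077.68 to 1097.76 TPM in parental cells and stood at 420.82, 383.03 and 337.65 TPM in clone 1 and 344.26, 340.86 and 391.13 TPM in clone 2 (log2 difference -0.08, adjusted p = 0.436). HERPUD1, of the degradation of misfolded proteins, had a difference of 0.04, and the secreted stress proteins STC2 and GDF15 had differences of -0.03 and -0.10. STC2 measured 3.39 to 5.23 TPM in parental cells, 0.17 to 0.2 TPM in clone 1 and 0.11 to 0.23 TPM in clone 2. GDF15 measured 1.22 to 2.19, 0.35 to 0.57 and 0.09 to 0.87 TPM in the same order. Both were below 1 TPM in every clone library, where log2(TPM + 1) could hardly separate the clones. The amino acid list (7 tested, 2 higher, 3 lower, median -0.06) went both ways. Its median was that of GATM, at 0 to 0.04 TPM in all OCI-AML2 libraries. Without GATM the median was -0.42 in this list. In it ASS1, argininosuccinate synthase of arginine synthesis, fell in steps from 1194.44, 1133.34 and 1073.54 TPM over 564.97, 556.41 and 555.58 TPM in clone 1 to 115.8, 145.36 and 138.28 TPM in clone 2 (-2.07). CTH, which makes cysteine from cystathionine and stands in both lists, went from 17.89, 17.48 and 15.88 TPM to 4.97, 3.4 and 3.56 TPM (-1.87). ARG2, mitochondrial arginase, was higher in clone 2 (0.67), and so was GOT1, cytosolic aspartate aminotransferase (0.36).

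Promoters of 15 members of these 2 lists stood in the RefSeq table (GRCh38.p14), and the 250 bases before the start were searched on both strands for TGATGNAA, the composite ATF4 and CHOP element. It was present in 3, those of CHAC1, HERPUD1 and GOT1, and in 3.89% of all 27305 promoters. All 3 are printed because they hold the same 8 letters while CHAC1 was lower in clone 2, HERPUD1 did not pass and GOT1 was higher. CHAC1 is at chr15:40953221-40953470 and HERPUD1 at chr16:56931892-56932141, both on the plus strand, and GOT1 at chr10:99430625-99430874 on the minus strand. Capitals mark the match, which lies on the reverse strand of the gene and starts 209, 176 and 198 bases before the start.
CHAC1: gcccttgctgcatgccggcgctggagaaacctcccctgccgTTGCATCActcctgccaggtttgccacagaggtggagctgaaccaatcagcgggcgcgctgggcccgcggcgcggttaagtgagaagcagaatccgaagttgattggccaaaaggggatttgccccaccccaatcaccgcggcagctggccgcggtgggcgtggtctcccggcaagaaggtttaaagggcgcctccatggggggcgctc
HERPUD1: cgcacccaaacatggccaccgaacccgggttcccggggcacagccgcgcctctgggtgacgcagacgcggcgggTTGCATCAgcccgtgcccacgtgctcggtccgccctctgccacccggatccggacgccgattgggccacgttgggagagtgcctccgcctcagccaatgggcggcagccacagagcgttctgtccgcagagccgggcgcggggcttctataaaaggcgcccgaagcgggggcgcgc
GOT1: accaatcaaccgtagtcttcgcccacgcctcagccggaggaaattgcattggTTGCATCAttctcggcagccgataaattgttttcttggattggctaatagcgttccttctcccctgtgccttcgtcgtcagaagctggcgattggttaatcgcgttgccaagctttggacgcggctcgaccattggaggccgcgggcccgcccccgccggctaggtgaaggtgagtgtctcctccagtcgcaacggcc
The element was found in 5 of 120 promoters of genes lower in clone 2 by a log2 difference of at least 1 (4.17%) and in 3 of 61 promoters of genes higher by as much (4.92%), against 3.86% of the 1528 tested. GAGGAAGT, the PU.1 element, was found in 6 of the 61 higher (9.84%), 6 of the 120 lower (5.0%) and 4.38% of the tested promoters. TGANTCA, the AP-1 element, was found in 8 (13.1%), 8 (6.67%) and 8.18%. Other elements searched were less frequent in the higher than in the tested promoters. The interferon response element was found in 1 (1.64%), 8 (6.67%) and 4.97%, and the E-box in 5 (8.2%), 7 (5.83%) and 10.9%. The sterol element was found in no higher or lower promoter. Whether any of these shares differ was not tested. A match describes letters in the window and no binding.

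Cell cycle genes were higher in clone 2 in 6 of 7 tested members, with none lower and a median log2 difference of 1.14. PLK1, the kinase of mitotic entry and spindle formation, measured 154.56, 134.48 and 119.25 TPM in clone 1 and 300.71, 392.76 and 422.84 TPM in clone 2, with 110.29 to 124.22 TPM in parental cells (log2 difference 1.44, SE 0.12, adjusted p = 2.0e-08). E2F2, a transcription factor of S phase entry, likewise differed in clone 2 alone, at 14.6, 14.38 and 15.8 TPM against 5.7, 7.28 and 5.86 TPM in clone 1 (1.13). CCND3, cyclin D3, stood at 215.25, 221.12 and 194.52 TPM in clone 1 and 523.19, 534.25 and 521.29 TPM in clone 2 (1.32). TRIP13, an ATPase of the spindle checkpoint, showed the other form: 34.37, 38.09 and 31.32 TPM in clone 1, against 97.26, 80.29 and 92.53 TPM in clone 2 and 78.63, 90.25 and 88.66 TPM in parental cells (1.35). Clone 1 alone had left the parental level there. CDKN2A, a locus of cell cycle inhibitors, was also higher in clone 2 (0.61), as was the kinase CDK6 (0.30), and the inhibitor CDKN2B did not pass (0.08).

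Most tested histone genes were lower in clone 2. They were grouped after their values had been seen: 7 of 8 tested were lower in clone 2, none higher, with a median log2 difference of -1.95. HIST1H1C, the linker histone H1.2, measured 18.29, 23.23 and 21.98 TPM in parental cells, 100.3, 107.94 and 136.45 TPM in clone 1 and 12.2, 15.71 and 12.16 TPM in clone 2. Clone 1 lay above and clone 2 below all parental libraries, 8.60-fold apart (-3.01, SE 0.14, adjusted p = 1.4e-11). HIST1H2BD (-2.58), HIST1H2AC (-2.20), HIST2H2BE (-2.11) and HIST1H2BK (-1.79) also moved in opposite directions. HIST1H2BK, the most abundant, measured 200.01, 208 and 207.69 TPM in parental cells, 335.76, 307.64 and 279.72 TPM in clone 1 and 79.78, 91.04 and 93.35 TPM in clone 2. HIST1H4C did not pass (0.19). Histone genes share near-identical copies, so single members are uncertain. Whether the libraries were made from polyadenylated RNA is not given in the sources used here. Whether these histone transcripts were polyadenylated or followed S phase in these cells was not tested.

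**Figure D2:**
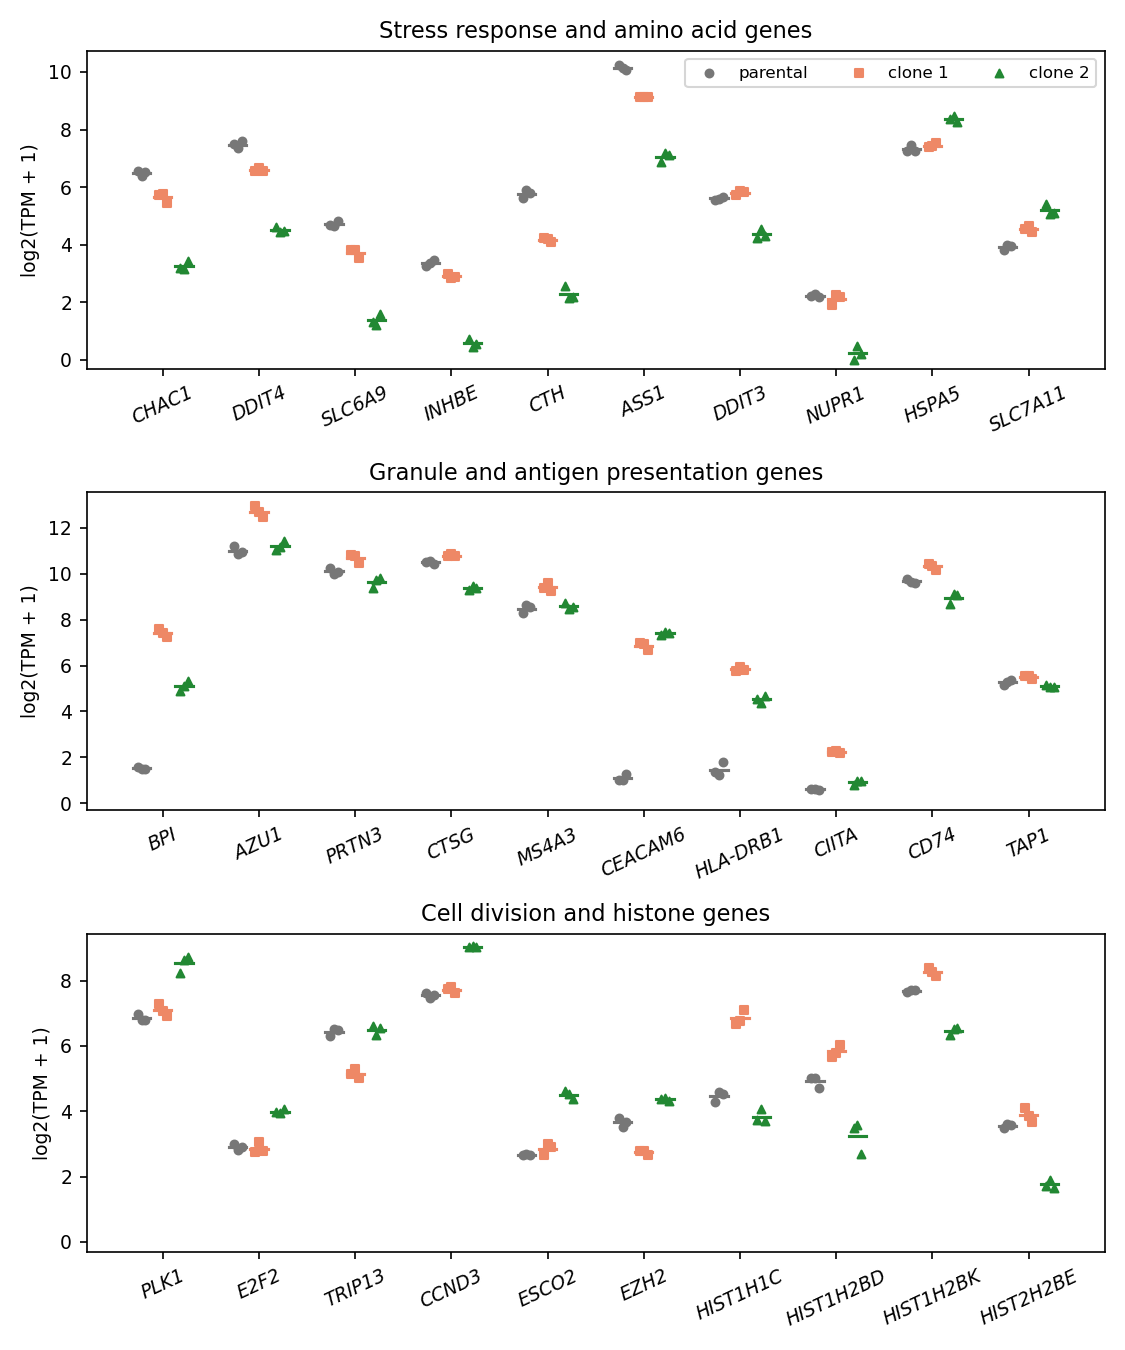
log2(TPM + 1) of 30 genes in the 3 parental, 3 clone 1 and 3 clone 2 libraries (points, 1 per library; bars, group means), for stress response and amino acid genes, granule and antigen presentation genes, and cell division and histone genes. Clone 2 is lowest for CHAC1 to NUPR1, clone 1 is highest for the granule genes up to MS4A3, and the histone genes lie on either side of parental.

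Most tested primary granule genes were higher in clone 1. Of 9 tested members 7 were lower in clone 2 and 1 higher, with a median log2 difference of -1.01. BPI, the bactericidal protein that binds lipopolysaccharide, measured 2.01, 1.8 and 1.83 TPM in parental cells, 193.44, 169.63 and 149.64 TPM in clone 1 and 28.43, 33.75 and 39.26 TPM in clone 2. Both clones had risen, clone 1 to 5.05 times the level of clone 2 (-2.31, SE 0.12, adjusted p = 5.7e-11). AZU1, azurocidin, was raised in clone 1 alone, at 7837.39, 6630.23 and 5786.03 TPM against 2134.1, 2274.77 and 2748.25 TPM in clone 2 and 1888.71 to 2342.21 TPM in parental cells (-1.50). MS4A3, a membrane protein of granulocyte progenitors (-0.83), and the protease inhibitor gene SERPINB10 (-0.99) had the same form. The serine protease genes CTSG and PRTN3 moved in opposite directions: CTSG measured 1742.81, 1839.27 and 1751.98 TPM in clone 1 and 624.87, 706.86 and 667.34 TPM in clone 2, around 1397.42 to 1526.45 TPM in parental cells (-1.42). PRTN3, proteinase 3, differed by -1.06, and PRSS57, another granule protease, by -1.01. CEACAM6, an adhesion molecule of granulocytes, was the exception, at 127.15, 121.62 and 102.07 TPM in clone 1 and 160.12, 177.85 and 168.56 TPM in clone 2 (0.53), from 1 to 1.41 TPM in parental cells.

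Genes of later phagocyte maturation did not share a direction (13 tested, 4 higher, 5 lower, median -0.27). Higher in clone 2 were, beside ANXA1, CYBB and NCF1 of the phagocyte oxidase and the chemokine receptor gene CXCR2. CYBB, the catalytic gp91phox chain, stood at 53.4, 58.48 and 49.7 TPM in clone 1 and 106.95, 96.38 and 101.43 TPM in clone 2 (0.90). NCF1, p47phox, differed by 1.22, but it has near-identical pseudogenes and is uncertain. CXCR2, a receptor for interleukin-8, differed by 0.78. The calprotectin chain gene S100A9 was lower, at 2585.59, 2298.05 and 2734.74 TPM in clone 1 and 1664.5, 1592.55 and 1397.74 TPM in clone 2, both far above 72.78 to 87.25 TPM in parental cells (-0.71, adjusted p = 0.00215). Its partner S100A8 measured 691.68, 854.79 and 1023.22 TPM in clone 1 and 684.73, 681.67 and 534.72 TPM in clone 2. These did not overlap, by a narrow margin, and did not pass (-0.43, adjusted p = 0.244). The gelatinase gene MMP9 (-0.42) and the formyl peptide receptor gene FPR2 (-0.37) were also lower in clone 2.

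Of 20 tested monocyte and macrophage genes, 8 were lower in clone 2, 4 higher and 8 did not pass (median -0.20). The shares over all tested sets with a settled symbol were 32.2% lower and 26.3% higher. OSCAR, an activating immunoglobulin-like receptor, was lower at 3.07, 3.51 and 4.34 TPM against 10.3, 10.12 and 8.04 TPM (-1.18), from 49.44 to 57.22 TPM in parental cells. Higher were FGL2, a fibrinogen-like protein, which had fallen in clone 1 alone (1.36), the scavenger receptor gene CD36, at low levels (0.92), the chemokine receptor gene CCR2, which had moved in opposite directions (0.81), and IRF8, a transcription factor of monocyte fate. IRF8 measured 213.26, 209.05 and 204.6 TPM in parental cells, 90.05, 97.88 and 99.17 TPM in clone 1 and 163.4, 167.12 and 160.23 TPM in clone 2 (0.77, SE 0.06, adjusted p = 1.6e-08). CD14, the lipopolysaccharide co-receptor, did not pass (-0.18).

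Most tested antigen presentation genes were lower in clone 2. In the MHC class II list, of which 5 of 13 members were tested, 4 of the 5 were lower, none higher (median -1.31). CIITA, the coactivator that controls class II genes, measured 0.51 to 0.53 TPM in parental cells, 3.74, 3.85 and 3.63 TPM in clone 1 and 0.74, 0.98 and 0.93 TPM in clone 2 (-1.33, SE 0.06, adjusted p = 1.5e-11). HLA-DRB1, a class II beta chain, stood at 1.56, 1.34 and 2.51 TPM, 53.93, 60.39 and 54.89 TPM and 22.23, 19.8 and 24.5 TPM in the same order (-1.31). The invariant chain gene CD74 moved in opposite directions, with 1377.14, 1309.38 and 1158.57 TPM in clone 1 and 404.64, 552.71 and 546.66 TPM in clone 2, around 772.77 to 867.85 TPM in parental cells (-1.36). HLA-DMA, a peptide exchange factor, differed by -0.76, and HLA-DOB did not pass (0.20). The peptide transporter gene TAP1, which loads class I molecules, measured 45.67, 45.41 and 42.33 TPM in clone 1 and 34.85, 32.88 and 32.37 TPM in clone 2, and the clones passed in opposite directions against parental (-0.40). HLA genes are polymorphic and share long stretches, so their levels are uncertain.

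Interferon-stimulated genes were divided, with 6 of 17 tested members higher, 6 lower and 5 not passed (median 0.10). Without 3 members below 1 TPM in all OCI-AML2 libraries the median was -0.02. The list summed to 137.48 to 152.63 TPM in clone 1 and 88.62 to 103.39 TPM in clone 2. IFI6, a mitochondrial antiviral protein, was raised in clone 1 alone, at 64.65, 64.69 and 60.9 TPM against 24.15, 24.61 and 28.47 TPM in clone 2 and 22.65 to 26.46 TPM in parental cells (-1.27). IFITM3, which blocks viral entry, differed by -0.92, the oligoadenylate synthase gene OAS2 by -0.66 and the dynamin-like GTPase gene MX1 by -0.52. OAS3 (0.43), CMPK2 (0.60) and IFI27 (0.93) were higher in clone 2, at up to 1.31, 4.18 and 4.63 TPM there.

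Chemokine and cytokine genes also went both ways (12 tested, 4 higher, 3 lower, median -0.02). Beside CCL2, IL1B, interleukin-1 beta, was higher in clone 2 at 16.57, 17.79 and 21.21 TPM against 8.46, 9.08 and 8.16 TPM, both below 30.48 to 30.88 TPM in parental cells (1.02). LTB (0.63) and TNF (0.29), both of the tumour necrosis factor family, were higher too. CCL5, a T cell and monocyte attractant, was raised in clone 1 alone, at 390.66, 367.1 and 276.71 TPM against 163.61, 183.81 and 186.7 TPM in clone 2 (-0.94). IL32 (-1.03) and TNFSF13B, the B cell survival factor BAFF (-1.15), were lower in clone 2. Of 13 receptor genes 3 were higher and 3 lower (median 0.04). IL3RA, the alpha chain of the interleukin-3 receptor, had left the parental level in clone 2 alone, at 6.81, 7.25 and 6.85 TPM against 14.26, 14.37 and 11.81 TPM in clone 1 (-0.86).

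Of 18 adhesion genes 8 were lower in clone 2 and 4 higher (median -0.15), against 32.2% and 26.3% of all tested sets with a settled symbol. Of the 12 called, 6 had moved in clone 2 alone. These included, beside ITGAX, ICAM4, a ligand of leukocyte integrins, at 23.7, 23.72 and 24.58 TPM in clone 1 and 7.89, 7.77 and 5.67 TPM in clone 2 (-1.64). CD37, a leukocyte tetraspanin, measured 1722.97, 1552.63 and 1163.16 TPM in clone 1 and 656.34, 688.78 and 842.76 TPM in clone 2 (-1.01). SELPLG, the P-selectin ligand, stood at 154.15, 138.71 and 123.64 TPM in clone 1 and 76.05, 78.9 and 88.77 TPM in clone 2 (-0.76). ITGB2, the beta chain that pairs with CD11c, was lower in clone 2 (-0.34), and ITGAL, another of its partners, did not pass (0.02). CD53, a tetraspanin, had fallen in clone 1 alone, at 16.82, 16.85 and 13.54 TPM against 49.57, 49.51 and 44.84 TPM in clone 2 (1.55).

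HOX and self-renewal genes were higher in clone 2 in 7 of 13 tested members and lower in none (median 0.32). HOXB4, HOXB7 and HOXB9 were below 1 TPM in all 9 OCI-AML2 libraries and at 0 in clone 1, so they could not be lower. Of all 4413 tested sets, 666 were below 1 TPM in these 9 libraries and were tested through OCI-AML3. HOXA9, a homeobox gene of leukaemic self-renewal, measured 61.21, 53.11 and 62.58 TPM in parental cells, 130.66, 142.19 and 124.96 TPM in clone 1 and 166.81, 170.81 and 159.51 TPM in clone 2 (0.32, SE 0.09, adjusted p = 0.0057). HOXA5 (0.41) and HOXA7 (0.57) followed the same order, as did BMI1, a Polycomb repressive complex 1 gene (0.57), and LIN28B, a repressor of let-7 processing (0.85). HOXA3 (-0.06), HOXA4 (0.27) and PBX3 (-0.06), which were above 1 TPM in these libraries, did not pass. LIN28B stood at 13.22, 14.43 and 13.36 TPM in clone 1 and 30.69, 22.29 and 24.22 TPM in clone 2. TERT, the telomerase catalytic subunit, had fallen in clone 1 alone, at 5.66, 5.8 and 5.18 TPM against 9, 11.44 and 11.03 TPM in clone 2 (0.81).

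Among 12 tested p53 targets 6 were higher in clone 2 and 1 lower (median 0.30), against 26.3% and 32.2% of all tested sets with a settled symbol. CDKN1A, the cell cycle inhibitor p21, measured 8.44, 8.86 and 9.21 TPM in parental cells, 7.69, 8.44 and 5.19 TPM in clone 1 and 19.23, 15.57 and 17.75 TPM in clone 2 (1.21, SE 0.12, adjusted p = 1.6e-07). FDXR, ferredoxin reductase, stood at 7.23, 6.94 and 8.35 TPM in clone 1 and 18.97, 19.44 and 16.28 TPM in clone 2 (1.18). DDB2, of nucleotide excision repair (0.88), the tetraspanin gene CD82 (0.99), PHLDA3, an inhibitor of AKT (0.52), and TP53I3 (0.42) were also higher. TP53INP1 was lower (-0.89), and BTG2 (0.17) and GADD45A (-0.06) did not pass.

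Of 6 tested cell death genes, among them the targeted CASP2, 3 were lower in clone 2 and none higher (median -0.17). The shares over all tested sets with a settled symbol were 32.2% and 26.3%. AIM2 was below 1 TPM in all OCI-AML2 libraries, and without it the median was -0.46. BMF, a BH3-only protein, measured 30.47, 29.37 and 26.95 TPM in clone 1 and 17, 16.25 and 17.12 TPM in clone 2 (-0.75). The inflammasome sensor genes NLRP1 (-1.22) and NLRP12 (-0.46) were lower too, and BCL2A1 did not pass (0.11).

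In lipid metabolism, 5 of 9 tested sterol and fatty acid genes were lower in clone 2 and none higher (median -0.39). The shares over all tested sets with a settled symbol were 32.2% lower and 26.3% higher. The cholesterol exporter genes ABCG1 (2.8 to 3.2 TPM in clone 1, 0.39 to 0.51 TPM in clone 2; -1.46) and ABCA1 (5.71 to 6.78 and 1.84 to 2.4 TPM; -1.27) led, followed by TM7SF2 (-0.74), the prenyl synthase gene FDPS (-0.60) and INSIG1 (-0.39). ABCG1 and ABCA1 export cholesterol and do not make it. In the eicosanoid list (14 tested, 2 higher, 4 lower, median -0.11) ALOX5AP, which presents arachidonate to 5-lipoxygenase, measured 242.63, 235.22 and 181.02 TPM in clone 1 and 600.37, 621.98 and 714.25 TPM in clone 2 (1.56), below 733.35 to 823.77 TPM in parental cells. PTGS2, cyclooxygenase-2, was higher too (0.62), and PTGDS, a prostaglandin D synthase, was lower (-0.94).

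In the remaining lists the directions were mixed. AP-1 and immediate early genes had 3 of 12 tested higher and 4 lower (median 0.03), with NR4A1, an orphan nuclear receptor, at 11.02, 9.32 and 7.57 TPM in clone 1 and 2.01, 2.53 and 2.72 TPM in clone 2 (-1.58), and FOS higher (0.55). TGF-beta, BMP, Wnt and Notch genes had 6 of 19 higher and 5 lower. Their median was 0, with 9 members, among them SMAD1 and WNT3, below 1 TPM in the 9 libraries, and 0.21 over the rest. TGFBI, an extracellular matrix protein, stood at 19.29, 21.4 and 20.13 TPM in clone 1 and 5.07, 5.21 and 6.38 TPM in clone 2 (-1.70), and BMP2 was higher (0.85). Metallothionein, redox and iron genes had 2 of 6 in each direction (median 0.28). There NQO1, a quinone reductase, was at 7.43, 9.8 and 9.04 TPM in clone 1 and 27.44, 24.75 and 21.46 TPM in clone 2 (1.39), and FTH1, ferritin heavy chain, was lower (-0.50). Of 7 glycolysis and glycogen genes 1 was higher, PFKP (0.49), and 1 lower, ENO2 (-1.26; median -0.02).

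**Figure D3:**
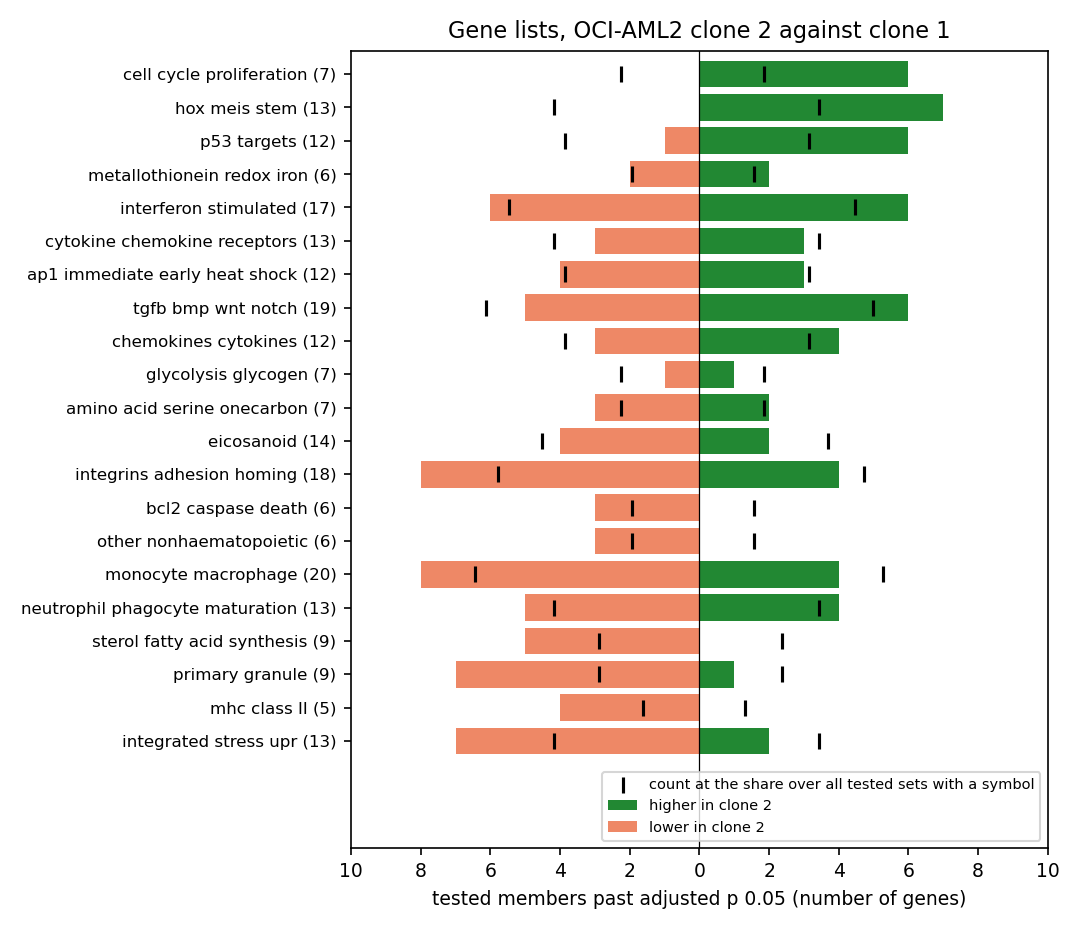
Number of tested members of each gene list higher (right) or lower (left) in clone 2 than in clone 1 at an adjusted p of 0.05, for lists with at least 5 tested members (number in brackets), ordered by median difference; ticks mark the count at the share of all tested sets with a symbol. The stress response, MHC class II and primary granule lists pass the tick on the left by the most, and the cell cycle and HOX lists hold no member lower in clone 2.

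Of 17 tested markers of other cell types, 7 were called between the clones, 6 lower in clone 2 and 1 higher. Of all tested sets with a settled symbol 58.5% were called, 32.2% lower and 26.3% higher. None of 3 erythroid and megakaryocyte markers passed, and their summed level was 53.18 to 73.05 TPM in parental cells, 73.88 to 88.51 TPM in clone 1 and 74.32 to 99.01 TPM in clone 2, mostly GP1BB and NFE2. Of 4 lymphoid markers 1 was lower in clone 2, PAX5 (-0.75), and GATA3 was listed at 0 in the 9 libraries. The lymphoid sum, 68.46 to 72.13 TPM in parental cells, 123.5 to 143.62 TPM in clone 1 and 153.92 to 197.16 TPM in clone 2, was almost all NKG7. Of 4 mast cell, basophil, eosinophil and dendritic markers 1 was higher, CLEC10A (1.19), and 2 lower, IL3RA and TPSB2 (-0.58), with sums of 25.31 to 27.27, 21.7 to 25.66 and 18.4 to 20.08 TPM. Of 6 non-haematopoietic markers 3 were lower, with sums of 50.92 to 57.88, 34.08 to 37.46 and 18.62 to 19.23 TPM, which fell in steps from parental over clone 1 to clone 2 without overlap. Of these 6 markers, 4 were below 1 TPM in the 9 libraries. COL8A2 (-0.71) and ACTA2 (-1.21) made up most of these, and COL6A2 was listed at 0 in the 9 libraries. The part of these markers in the results above was not tested.

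By chromosome, 2063 of the tested sets with a settled symbol could be placed through RefSeq. Chromosome 7, which carries CASP2 and EZH2, had 62 of 144 genes higher in clone 2 and 23 lower (43.1% and 16.0%). Chromosome 5 had 50 of 123 higher and 23 lower (40.7% and 18.7%), and there the genes of both clones lay below parental on balance, with median log2 differences of -0.46 in clone 1 and -0.28 in clone 2. On chromosome 18, 13 of 28 genes were higher and 7 lower (46.4% higher). Chromosome 19, which carries AZU1, PRTN3 and CFD side by side, had 20 of 135 higher and 64 lower (14.8% and 47.4%). Chromosome 20 had 9 of 45 higher and 23 lower (20.0% and 51.1%), and chromosome 22 had 5 of 61 higher and 24 lower (8.2% and 39.3%). In 14 of 1925 windows of 7 neighbouring genes, which overlap each other, the median log2 difference reached 1 in size, each of them lower in clone 2. Of these windows 5 lay around the histone genes of chromosome 6, where the median fell to -1.79, and 9 on chromosome 19, where it was -1.07 to -1.01. On chromosome 5, 4 overlapping windows that hold TERT, 3 of them with TRIP13, had all 7 genes higher in clone 2 with a median of 0.81, and clone 1 there lay at -1.29 to -1.22 against parental. Other windows of chromosome 5 went the other way, with a median as low as -0.99 and 4 of 7 genes lower in clone 2. DNA copy number was not measured, and its part in these values was not tested.

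**Figure D4:**
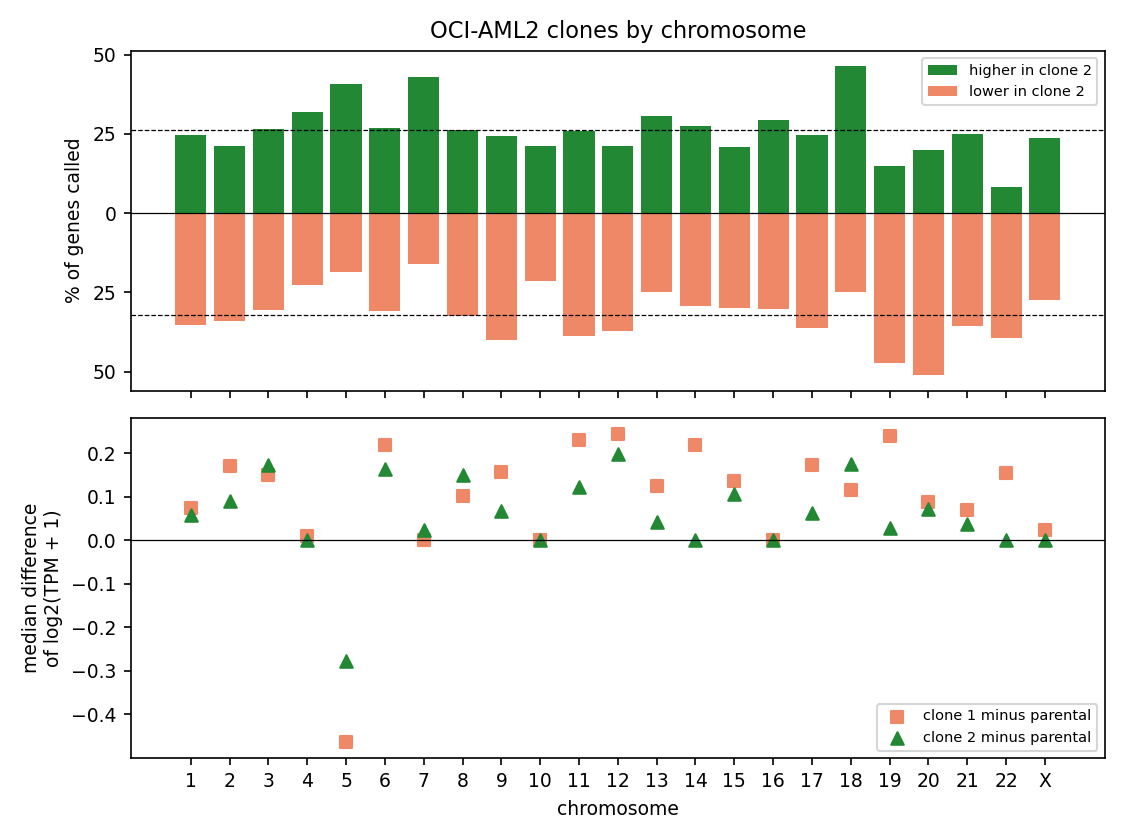
Upper panel, share of placed tested genes per chromosome higher (up) or lower (down) in clone 2 than in clone 1, with dashed lines at the shares over all tested sets with a symbol (26.3% and 32.2%). Lower panel, median difference of log2(TPM + 1) from parental for clone 1 (squares) and clone 2 (triangles); chromosome 5 is below 0 in both clones.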

How the data were processed

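Per the labels' protocols, total RNA was purified with a column kit and a commercial facility made the libraries. The authors deposited TPM for each gene symbol in each library, per the file headers. For the aligner, the counter and the build, nothing is given in the sources used here. TPM keeps no read depth, so no counting error is given.

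The table's 6999 lines repeat sets of values, 1319 of them under 2 symbols, so each of the 5069 distinct sets was counted once. Symbols were taken as settled for 575 sets repeated under only 1 symbol, for 1076 through the order of replicates of OCI-AML3 clone 1, and for 673 on a single line with a parental log2 ratio under 0.6, 45.8% of sets in all. A set of the first kind could also stand once under another symbol. The replicate-order rule takes as right the line whose 3 values stand in the order a, b, c where its twin reads b, c, a. All value columns matched a sample (0 did not). The 656 sets below 1 TPM in 3 libraries were not tested.

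Values were compared as log2(TPM + 1), with a pseudocount of 1, in R 4.3.3 by limma 3.58.1, fitting the 18 libraries with a mean for each group, an intensity trend, two-sided p-values and Benjamini-Hochberg adjustment over all tested sets at 0.05. Numbers in brackets after a gene are log2(TPM + 1) differences, clone 2 minus clone 1, and they understate the change of low genes. Folds are ratios of mean TPM. The scripts were tested on simulated data. Other steps used Python 3.11.15, pandas 2.3.3 and scipy 1.17.1.

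Named were the 12 largest differences in each direction and the 4 largest in each class of which clone left the parental level, among called genes without overlap and with a mean of at least 5 TPM in the higher group, plus members of the gene lists. Genes that could identify a donor's sex were left out. The members and lists were chosen with earlier results of these data known. Many members of the lists were not tested: 7 of 44 cell cycle genes and 7 of 36 amino acid genes were, for example. Counts and medians of a list describe its tested members and not the whole pathway. Results for a few list members are not reported here.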

Additional observations from a re-analysis of the deposited data

How the results depend on the processing

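Fitting the 1950 sets selected on OCI-AML3 alone gave 484 sets higher and 579 lower in clone 2. By which clone left the parental level, clone 1 alone had 174, clone 2 alone 342, both in the same direction 383, both in opposite directions 117 and neither 47, all counts lower because fewer sets were tested. Requiring a log2 difference of at least 1 left 176 higher and 334 lower. A pseudocount of 0.1 gave 1229 higher and 1228 lower, no filter on low values 1348 and 1409, a minimum of 5 TPM 1150 and 951, medians of ratios 1527 and 1139, and the 6 clone libraries fitted alone 1144 and 1147.

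Leaving out 1 library at a time gave 1179 to 1304 higher and 1157 to 1298 lower. Clone 1 alone then held 367 to 434 sets, clone 2 alone 726 to 838, both in the same direction 903 to 966, both in opposite directions 225 to 277 and neither 76 to 170, with 76 without clone 2 replicate 1. With the replicate number as a block the counts were 1305 higher and 1264 lower. Libraries of the clones with the same number did not deviate together (correlations -0.102, -0.00804 and -0.0900), and not every library correlated best with its own number, so the numbers were not used as pairs.

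For 35 named genes and CASP2 no difference changed sign under the alternatives run. ABHD4, DUSP22, PELI2 and TRIM36 lost their call under at least 1 of them (13 results in all), and CASP2 gained one under 4. In 2 of the 4 its log2 difference was 0.26, with a minimum of 5 TPM, and 0.33, after rescaling by medians of ratios. In the others it was 0.33 without clone 1 replicate 1 and 0.43 without clone 2 replicate 2. When 1 library was left out CASP2 ranged from 0.18 to 0.43, and at 0.18, without clone 2 replicate 3, it was not called. The read depth is unknown, so the precision of low values cannot be given.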
